A study of Oryza sativa with 12 samples.

Results

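The response of rice seedlings of a pkg mutant line to Br-cGMP was followed in 6 of the 12 RNA-seq libraries of the study. The 6 libraries were chosen by their labels as all libraries of the mutant line: 3 from seedlings treated with 10 µM Br-cGMP for 5 h (pkg Br-cGMP 1 to 3) and 3 from seedlings labelled as control (pkg control 1 to 3). Br-cGMP is a brominated analogue of cyclic GMP. All 6 libraries came from 14-day-old seedlings of cultivar ZH11 grown on MS medium under 12 h light and 12 h dark, and their genotype label is PKG-/-. The labels do not say how the mutation was made, which part of the gene it alters, how many seedlings went into a library or whether the line is a single isolate. The other 6 libraries are 3 Br-cGMP and 3 control libraries of wild-type ZH11, under the same labelled protocols and used here only as a comparison. The series calls its repeats biological. Levels are FPKM, fragments per kilobase of feature scaled to library size, and triplets of values below run from replicate 1 to replicate 3.

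Cyclic GMP is a second messenger, and PKG names a protein kinase that cyclic GMP activates. In plants, cyclic GMP has been studied in light, hormone and stress signalling. The series title places rice PKG in gibberellin signalling through GAMYB, a MYB transcription factor known for switching on alpha-amylase genes in germinating cereal grain. In that pathway the hormone binds the receptor GID1, and the receptor then triggers loss of the DELLA repressor SLR1. The comparison asks what Br-cGMP does to transcripts in seedlings whose genotype label says that the kinase gene is mutated.

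The reads assigned to features, recovered from the deposited values, numbered 6667261 to 9132667 in the 6 libraries. The locus taken for PKG has no symbol in the files (OS02G0281000, chromosome 2, 10419062 to 10428014, on a build that the sources used here do not give). It stood at 9.03, 3.68 and 8.61 FPKM in Br-cGMP seedlings, against 7.20, 9.22 and 9.29 FPKM in control seedlings, so its transcript was present in all 6 libraries and the groups overlapped. Its difference was -0.31 ± 0.37 on the log2(FPKM + 1) scale (Br-cGMP minus control, ± standard error, as for every difference below), and without pkg Br-cGMP 2 it was 0.045. As the altered part of the gene is not stated, this level does not check the genotype label.

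The libraries differed in tissue and seed transcripts in ways that did not follow treatment. Of 6 root genes found in the files, LSI2, a silicon efflux transporter of roots, stood at 41.7, 452 and 0.181 FPKM in Br-cGMP seedlings, against 126, 129 and 0 FPKM in control seedlings. NIP2-1, a silicon channel of roots, stood at 117, 1307 and 13.3 FPKM in Br-cGMP seedlings and 480.3, 415 and 6.91 FPKM in control seedlings. Replicate 3 was the lowest of its group in these 2 genes, in PIP2-3, a plasma membrane aquaporin gene listed at 0 in both replicate 3 libraries, and in OS02G0662000. The other 2 root genes went another way: PHT1-1 had its highest level of all in pkg Br-cGMP 3, and both PHT1-1 and PHT1-8 were higher in replicate 3 than in replicate 1 of each group. The summed level of the 6 root genes was 457, 3955 and 551 FPKM in Br-cGMP seedlings and 1396, 1209 and 189.9 FPKM in control seedlings. That of the 5 leaf genes found (2 of them, CAB1R and CAB2R, listed at 0 throughout) was 1422, 2671 and 2036 FPKM in Br-cGMP seedlings and 860.4, 2062 and 5389 FPKM in control seedlings, highest in pkg control 3. The ranges of both sums overlapped between the groups. In whole seedlings, fewer cells of a type and less RNA per cell cannot be told apart.

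Transcripts of the grain were found in pkg Br-cGMP 1. AMY1.1, an alpha-amylase gene, stood at 466 FPKM there, carried by 6297 reads, and at 0.159 FPKM or less in the other 11 libraries of the study. The summed level of 19 seed storage protein and oil body genes was 57.9, 7.78 and 6.45 FPKM in Br-cGMP seedlings and 6.70, 8.06 and 5.27 FPKM in control seedlings, and 4.96 to 10.2 FPKM over the other 11 libraries. The glutelin gene GLUB2 (5.42 FPKM) and the prolamin gene PROLM25 (10.1 FPKM) were among 15 of 20 detected grain genes that were highest in pkg Br-cGMP 1. These genes were picked after their values were seen, so no test was made. AMY1.1 reached 1 FPKM in 1 library only and was not tested for the response, and of the 6 amylase genes listed none was tested. Results below are given also without pkg Br-cGMP 1 or without replicate 3 where that matters, and the part of tissue and grain transcripts in them was not tested.

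**Figure D1:**
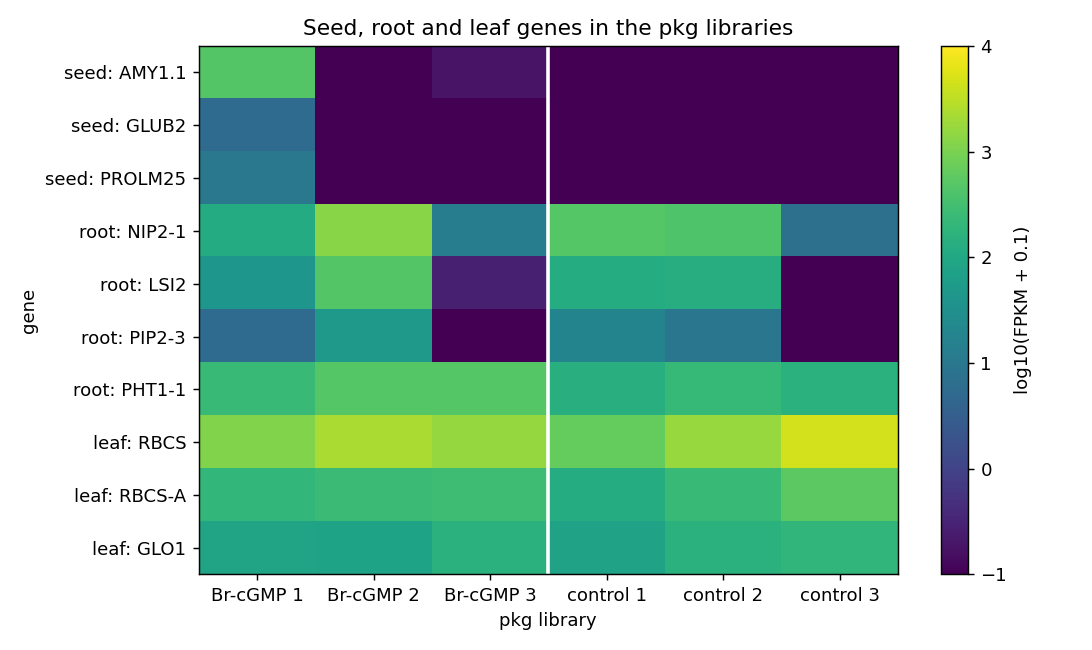
Levels of 3 grain, 4 root and 3 leaf genes (rows) in the 6 pkg libraries (columns, Br-cGMP left of the white line and control right of it), coloured by log10(FPKM + 0.1). The grain genes are lit in Br-cGMP 1 alone. LSI2 and PIP2-3 are dark in replicate 3 of both groups. NIP2-1 is dimmer there than in the other libraries but not dark, at 13.3 FPKM in Br-cGMP 3 and 6.91 FPKM in control 3. The root gene PHT1-1, at 480.5 FPKM in Br-cGMP 3, is bright there.

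Across the transcriptome, no feature passed the adjusted threshold in pkg seedlings. A level of 1 FPKM was reached in at least 3 of the 6 libraries by 21448 of 112071 listed features, of which 12413 were reference genes. With limma and Benjamini-Hochberg adjustment, 0 features were called at an adjusted p of 0.05 (0% of those tested), and every adjusted p rounded to 1. At an unadjusted p under 0.05 there were 420 features (1.96%), 226 higher in Br-cGMP seedlings (1.05%) and 194 lower (0.905%), where an even spread of p-values would give 1072. Run on the recovered reads, limma-voom gave 0 calls as well, with 318 features at an unadjusted p under 0.05. Without pkg Br-cGMP 1, the library with the grain transcripts, 1153 features had an unadjusted p under 0.05, and 0 were called.

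Libraries of the same replicate number deviated together, although the labels state no pairing. Deviations from the group means correlated across features at 0.378, 0.326 and 0.365 between Br-cGMP and control libraries of the same number, and at -0.51 to 0.154 between libraries of different numbers. Deviations within a group sum to 0 in each feature, so these values are not independent of one another. With the replicate number as a block in the limma fit, 853 features had an unadjusted p under 0.05 (3.98%), 513 higher in Br-cGMP seedlings (2.39%) and 340 lower (1.59%). The block also gave 0 calls, with a smallest adjusted p of 0.996, and limma-voom with the block gave 0 calls and 781 features at an unadjusted p under 0.05. All 3 same-numbered pairs were higher for 2669 features (12.4%) and lower for 2236 (10.4%). The median difference over all features tested was -0.01. None of the genes named below passed the test, and they are described by their values.

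**Figure D2:**
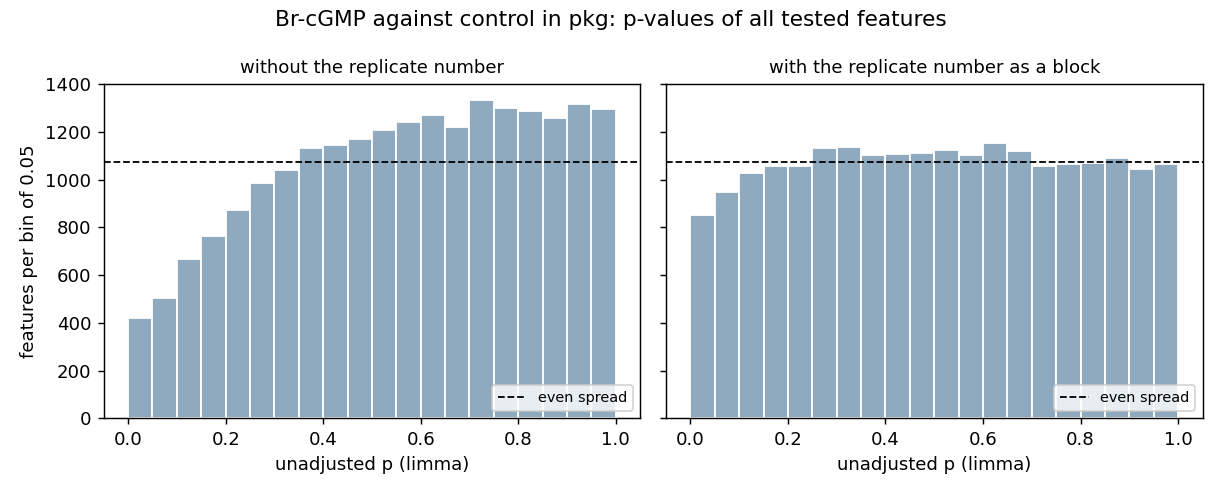
Number of features (vertical axis) in bins of 0.05 of the unadjusted limma p (horizontal axis) for Br-cGMP against control in pkg seedlings, without the replicate number (left) and with it as a block (right); the dashed line marks an even spread. The lowest bin holds 420 features on the left and 853 on the right, both under the line at 1072.

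The groups did not overlap for 601 features higher in Br-cGMP seedlings (2.8% of those tested) and for 520 lower (2.42%). Genes that have a symbol and average 5 FPKM or more in their higher group made up 19 of the first kind and 5 of the second. The 12 higher genes with the smallest p and the 5 lower genes are named here; their lack of overlap is how they were chosen. NAC67, a stress-related NAC transcription factor gene (OS07G0225300, chromosome 7, 6968003 to 6969254), stood at 55.2, 68.8 and 105 FPKM in Br-cGMP seedlings, against 23.5, 35.8 and 34.05 FPKM in control seedlings. The lowest treated library was above the highest control library, and the means were 76.5 ± 25.9 FPKM in Br-cGMP seedlings and 31.1 ± 6.67 FPKM in control seedlings (SD, n = 3 each). Its difference was 1.24 ± 0.31, with 1.20, 0.92 and 1.60 in the 3 same-numbered pairs. CAD8D, of the cinnamyl alcohol dehydrogenase family that includes enzymes of lignin synthesis (OS09G0400400, chromosome 9, 14001271 to 14002927), had the smallest p of the genes with symbols. It stood at 58.02, 102 and 78.6 FPKM in Br-cGMP seedlings, against 33.4, 38.5 and 36.3 FPKM in control seedlings, the control libraries lying close together. Its difference was 1.08 ± 0.25 (0.78, 1.38 and 1.09 in the pairs).

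PHT1-1, a phosphate transporter gene expressed in roots (OS03G0150600, chromosome 3, 2807616 to 2809540), stood at 232, 472 and 480.5 FPKM in Br-cGMP seedlings, against 135, 222 and 155 FPKM in control seedlings. Pkg Br-cGMP 1 was close to pkg control 2, and the other 2 treated libraries were far above every control library. Its difference was 1.16 ± 0.36, 1.505 without pkg Br-cGMP 1 and 0.93 without replicate 3 of both groups. SAP1, which encodes a stress-associated protein with A20 and AN1 zinc fingers (OS09G0486500, chromosome 9, 18760705 to 18761574), stood at 156, 202 and 247 FPKM in Br-cGMP seedlings, against 91.6, 117 and 140.4 FPKM in control seedlings. The levels differed between replicates within each group, yet the 3 pairs gave nearly equal differences of 0.76, 0.78 and 0.81. The standard error of its difference of 0.79 was 0.26 without the block and 0.15 with it. HSFA4D, a heat stress transcription factor gene (OS05G0530400, chromosome 5, 26344418 to 26346857), stood at 10.4, 10.97 and 13.9 FPKM in Br-cGMP seedlings, against 4.13, 8.29 and 4.73 FPKM in control seedlings, a difference of 0.97 ± 0.31.

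STLP3, a sialyltransferase-like gene (OS04G0506800, chromosome 4, 25307143 to 25308493), had the widest difference of these genes, 1.64 ± 0.56, at 8.29, 37.5 and 27.2 FPKM in Br-cGMP seedlings, against 6.62, 7.18 and 4.34 FPKM in control seedlings. Pkg Br-cGMP 1 was only just above the controls, and without it the difference was 2.25. The chitinase gene CHT3 (OS06G0726100, chromosome 6, 30887215 to 30888383) showed the reverse: at 240.1, 90.5 and 104 FPKM in Br-cGMP seedlings, against 42.7, 86.9 and 59.1 FPKM in control seedlings, it was highest in pkg Br-cGMP 1. Its difference of 1.11 ± 0.45 became 0.68 without that library, and pair 2 differed by 0.06. The other 5 had smaller differences. HCT2, a hydroxycinnamoyltransferase gene, stood at 189, 316 and 255 FPKM in Br-cGMP seedlings, against 163, 176 and 183 FPKM in control seedlings (0.51 ± 0.24). RH3 (OS01G0508100) stood at 21.8, 18.2 and 17.8 FPKM in Br-cGMP seedlings, against 13.1, 16.6 and 7.84 FPKM in control seedlings (0.64 ± 0.31). OSASA2, for an anthranilate synthase alpha subunit of tryptophan synthesis, stood at 31.3, 39.5 and 42.8 FPKM in Br-cGMP seedlings, against 29.1, 30.9 and 26.4 FPKM in control seedlings (0.38 ± 0.20). PURA1, an adenylosuccinate synthetase gene of purine synthesis, differed by 0.37 ± 0.20 and TBP2 (OS07G0691800) by 0.38 ± 0.24; for both, the lowest treated and the highest control library were less than 1.5 FPKM apart.

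Of the lower genes, SODCP, the copper and zinc superoxide dismutase of chloroplasts (OS08G0561700, chromosome 8, 28132469 to 28135505), stood at 89.8, 74.2 and 66.9 FPKM in Br-cGMP seedlings, against 142, 106 and 121 FPKM in control seedlings. All 3 pairs were lower, by a similar amount (-0.66, -0.51 and -0.84), and the difference was -0.67 ± 0.21. RAB21, a dehydrin gene responsive to abscisic acid and water loss (OS11G0454300, chromosome 11, 15342877 to 15343671), stood at 11.2, 13.2 and 12.8 FPKM in Br-cGMP seedlings, against 32.4, 53.5 and 14.8 FPKM in control seedlings. The treated libraries lay close together, while pkg control 3 was only just above them, so that the difference of -1.19 ± 0.46 became -1.69 without replicate 3 of both groups. SERR, a serine racemase gene, stood at 18.96, 17.2 and 15.2 FPKM in Br-cGMP seedlings, against 25.02, 19.2 and 33.4 FPKM in control seedlings (-0.54 ± 0.26). BHLH154, a basic helix-loop-helix factor gene, differed by -0.28 ± 0.23. OS9, for a lectin of endoplasmic reticulum-associated degradation, differed by -0.20 ± 0.17. The 12 higher genes were higher in all 3 pairs and the 5 lower genes lower in all 3 pairs, which the lack of overlap fixes.

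**Figure D3:**
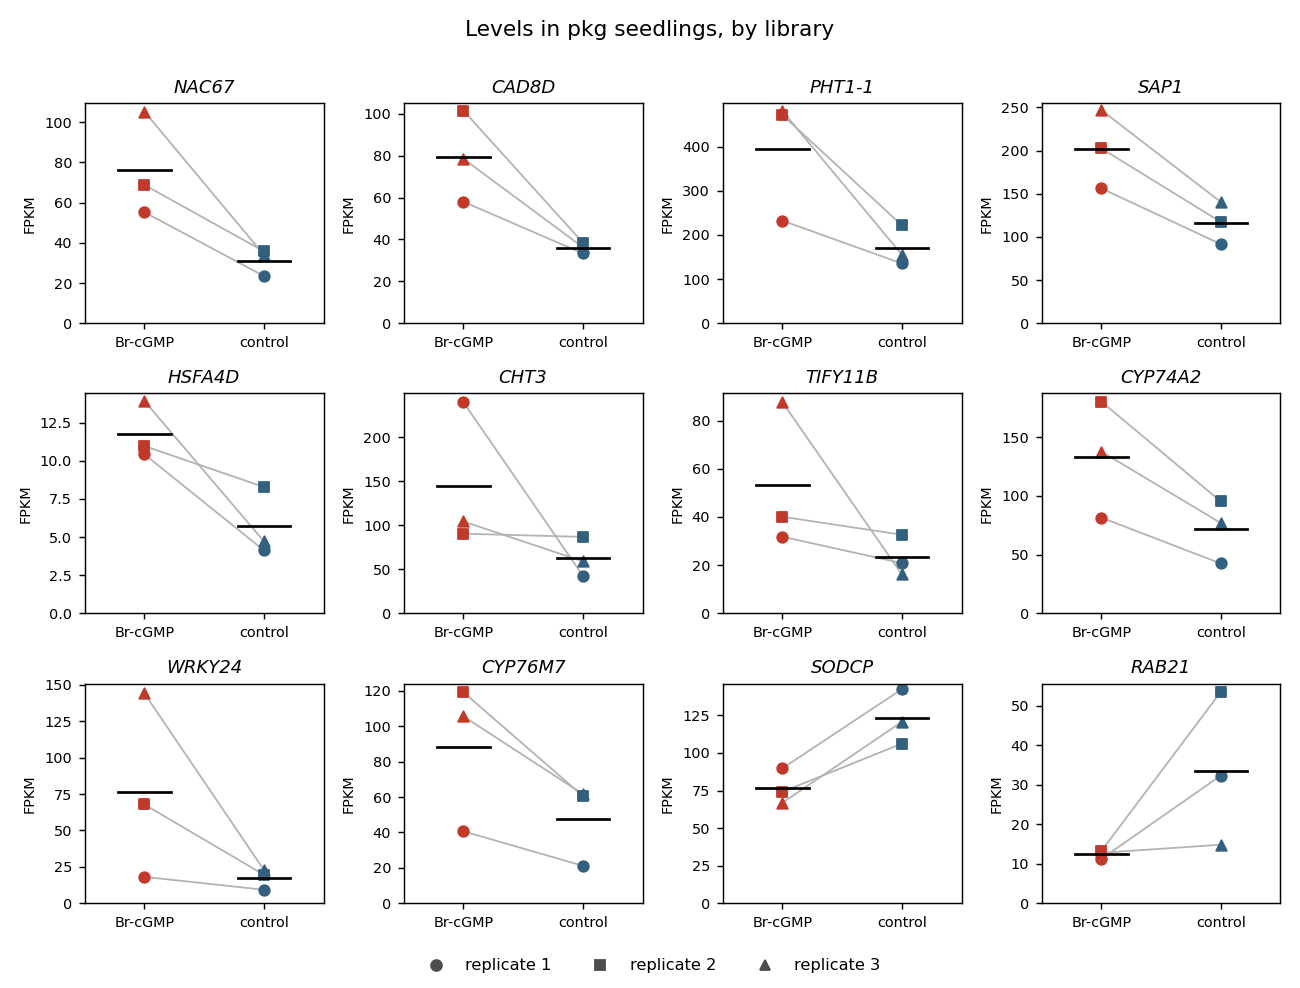
FPKM (vertical axis, from 0) of 12 named genes in the 3 Br-cGMP (left, red) and 3 control (right, blue) libraries of pkg seedlings; the symbol shape gives the replicate number, grey lines join libraries of the same number and black bars are means. The red points of NAC67 lie between 55.2 and 105 FPKM, all above its blue points, and the red points of SODCP lie below its blue points.

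Gene groups were followed in 34 lists built from symbol families. They held 475 distinct tested members, of which 8 had an unadjusted limma p under 0.05 (1.68%), 7 of them higher in Br-cGMP seedlings. The share was 1.96% over all features tested, 1.378% over reference genes and 12 of 1055 over reference genes with a symbol. With the replicate block 32 members had an unadjusted p under 0.05 (6.74%, against 3.98% of all features and 3.73% of the reference genes), 23 higher and 9 lower. Groups did not overlap for 12 members higher (2.53%) and 2 lower (0.421%), shares not above those of all features (2.8% and 2.42%). Of the 1055 tested reference genes with a symbol, from which the lists were drawn, 21 were higher without overlap and 7 lower. Beside each list below stand, as the background, 10379 of 21448 features higher (48.4%), with a median of -0.01, and 6259 of 12413 reference genes higher (50.4%), with a median of 0.0028. Reference genes with a symbol had 560 of 1055 higher (53.1%), with a median of 0.019 and pair medians of -0.06, 0.20 and -0.02. Each list's adjusted p-values were 1 throughout in limma. Of the 34 list medians, 24 changed sign when 1 of the 6 libraries was left out, so the counts of higher and lower members below describe these libraries.

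Jasmonate genes had 14 of 18 tested members higher and 4 lower, with a median difference of 0.15, which differed between replicates (-0.11, 0.23 and 0.71 in pairs 1 to 3). Of 29 listed, 4 were listed at 0. The median was 0.44 without pkg Br-cGMP 1, 0.09 without pkg Br-cGMP 2 and 0.019 without replicate 3 of both groups. TIFY11B, one of the JAZ repressor genes that jasmonate itself induces, stood at 31.8, 40.05 and 87.7 FPKM in Br-cGMP seedlings, against 20.8, 32.6 and 16.2 FPKM in control seedlings. Pkg Br-cGMP 3 stood apart at the top, and without replicate 3 of both groups the difference of 1.08 ± 0.45 became 0.44. TIFY11D was also highest in pkg Br-cGMP 3, at 39.5, 50.8 and 128 FPKM in Br-cGMP seedlings, against 24.8, 52.2 and 24.6 FPKM in control seedlings, with a difference of 0.98 ± 0.53 (0.31 without replicate 3). CYP74A2, an allene oxide synthase gene of jasmonate synthesis (OS03G0225900, chromosome 3, 6608577 to 6610549), behaved evenly across replicates. It stood at 81.6, 180.5 and 138 FPKM in Br-cGMP seedlings, against 42.4, 95.3 and 76.96 FPKM in control seedlings; the groups overlapped, but the pairs differed by 0.93, 0.91 and 0.83. The difference of 0.89 had a standard error of 0.42 without the block and 0.16 with it. TIFY6B stood at 90.00, 119 and 143 FPKM in Br-cGMP seedlings, against 80.4, 99.7 and 104 FPKM in control seedlings (0.29 ± 0.24).

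The lists of diterpenoid phytoalexin genes and of chitinase and pathogenesis-related genes were small. All 7 tested members of the diterpenoid phytoalexin list, of 13 listed, were higher, with a median of 0.65 (0.91, 1.31 and 0.48 in the pairs). CYP76M7, a cytochrome P450 of phytocassane synthesis, stood at 40.7, 119 and 106 FPKM in Br-cGMP seedlings, against 21.2, 60.6 and 61.8 FPKM in control seedlings. Each treated library was well above the control of the same number (0.91, 0.96 and 0.76 in the pairs), while the groups overlapped, and the difference was 0.88 ± 0.58. KSL4, the diterpene synthase gene of the momilactone branch, stood at 3.35, 2.95 and 3.97 FPKM in Br-cGMP seedlings, against 0.503, 4.64 and 0.280 FPKM in control seedlings, with pkg control 2 above every treated library (0.99 ± 0.60). KSL10, another diterpene synthase gene, likewise had its highest level in pkg control 2, at 4.11, 1.30 and 1.79 FPKM in Br-cGMP seedlings, against 0.455, 4.80 and 0 FPKM in control seedlings (0.65 ± 0.72). CYP76M8 stood at 13.99, 23.9 and 1.11 FPKM in Br-cGMP seedlings, against 5.42, 9.04 and 0.513 FPKM in control seedlings, lowest in replicate 3 of both groups (1.00 ± 1.12); the difference was 0.20 without pkg control 3 and 2.07 without pkg Br-cGMP 3. The chitinase and pathogenesis-related list had 6 of 8 tested members higher and 2 lower (median 0.26, and -0.0014 without pkg control 3), with CHT6 at 105, 134 and 151 FPKM in Br-cGMP seedlings, against 50.2, 99.1 and 118 FPKM in control seedlings (0.61 ± 0.36).

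Of the transcription factors linked to defence and stress, all 4 tested NAC genes and all 3 tested WRKY genes were higher, of 7 and 4 listed. The NAC median was 0.55 and the WRKY median 0.74. WRKY24 (OS01G0826400, chromosome 1, 35347982 to 35350546) stood at 18.2, 67.8 and 144 FPKM in Br-cGMP seedlings, against 9.32, 19.7 and 22.97 FPKM in control seedlings. Pkg Br-cGMP 1 lay within the control range and the other 2 treated libraries far above it, so the difference of 1.74 ± 0.77 became 2.54 without that library. WRKY76, known in rice as a repressor of defence genes, stood at 131, 112 and 262 FPKM in Br-cGMP seedlings, against 71.1, 121 and 95.6 FPKM in control seedlings (0.74 ± 0.38), and pair 2 had the opposite sign to the others. WRKY51 differed by 0.41 ± 0.32, NAC71 by 0.64 ± 0.47 and NAC74 by 0.46 ± 0.35, all with overlapping groups.

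Cold and drought factors of the DREB family split, with 4 of 8 tested members higher and 4 lower. DREB1A, which is cold-induced in rice, stood at 47.2, 35.1 and 54.00 FPKM in Br-cGMP seedlings, against 5.79, 8.77 and 54.1 FPKM in control seedlings. Replicates 1 and 2 were far higher in treated seedlings and pair 3 was level, so that the difference of 1.57 ± 0.79 became 2.36 without replicate 3 of both groups. DREB1C stood at 4.08, 5.09 and 32.8 FPKM in Br-cGMP seedlings, against 2.09, 3.34 and 5.66 FPKM in control seedlings, highest in pkg Br-cGMP 3 (1.18 ± 0.78). The abscisic acid list had 3 of 8 tested members higher and 5 lower (median -0.15); its dehydrin gene RAB16B stood at 1.46, 1.05 and 0.144 FPKM in Br-cGMP seedlings, against 1.47, 4.57 and 2.13 FPKM in control seedlings (-0.97 ± 0.45). BZIP46, a transcription factor gene of abscisic acid signalling, was lower in each pair, at 24.8, 9.04 and 8.55 FPKM in Br-cGMP seedlings, against 42.4, 10.9 and 23.7 FPKM in control seedlings (-0.79 ± 0.60). The heat shock list had 11 of 27 tested members higher and 16 lower (median -0.04), with the factor genes HSFB2C at 0.47 ± 0.29 and HSFB1 at 0.78 ± 0.48.

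Among calcium sensors, calcium-dependent kinases and calmodulins had 23 of 28 tested members higher and 5 lower, with a median of 0.21 and pair medians of 0.02, 0.47 and 0.11. Of 57 genes listed, 17 were listed at 0. CPK13, a calcium-dependent protein kinase gene, stood at 103, 153 and 176 FPKM in Br-cGMP seedlings, against 87.8, 104 and 85.5 FPKM in control seedlings. Only pkg Br-cGMP 1 overlapped the controls, and the difference was 0.61 ± 0.25. CML14, a calmodulin-like gene, stood at 7.17, 29.03 and 16.97 FPKM in Br-cGMP seedlings, against 7.91, 7.31 and 5.42 FPKM in control seedlings, again with pkg Br-cGMP 1 among the controls (1.07 ± 0.50, and 1.57 without that library). CML4 differed by 0.72 ± 0.36 and CML20 by 0.64 ± 0.35, each with pair 1 below 0. CBL sensors and CIPK kinases, another calcium-signalling family, had 11 of 21 tested members higher and 10 lower, with the kinase gene CIPK18 at 33.5, 9.41 and 7.80 FPKM in Br-cGMP seedlings, against 49.99, 17.1 and 38.8 FPKM in control seedlings (-1.18 ± 0.64). MAP kinase cascade genes had 4 of 7 tested members higher and 3 lower (median 0.05). MPK5, a MAP kinase gene induced by pathogens and abiotic stress in rice, stood at 28.4, 64.01 and 72.7 FPKM in Br-cGMP seedlings, against 22.4, 35.95 and 21.9 FPKM in control seedlings (0.94 ± 0.42, and 1.35 without pkg Br-cGMP 1).

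All 6 tested nitrogen supply genes were higher, of 17 listed, with a median of 0.37, but by uneven amounts. Their differences ran from 0.0015, which is level, to 1.55, and were widest for NAR2.2 and AMT1-1. The list holds transporter and nitrogen assimilation genes. NAR2.2, the partner protein of high-affinity nitrate transporters, stood at 6.25, 29.2 and 15.8 FPKM in Br-cGMP seedlings, against 1.34, 3.99 and 11.5 FPKM in control seedlings. Each treated library was above its control, and pkg control 3 was above pkg Br-cGMP 1 (1.55 ± 0.77). AMT1-1, an ammonium transporter gene, stood at 5.20, 20.7 and 17.7 FPKM in Br-cGMP seedlings, against 3.70, 10.1 and 10.5 FPKM in control seedlings (0.69 ± 0.61). Potassium and sodium transport genes had 8 of 9 tested members higher and 1 lower (median 0.29), among them TPK3, for a potassium channel, at 9.03, 12.9 and 16.01 FPKM in Br-cGMP seedlings, against 6.12, 6.88 and 10.7 FPKM in control seedlings (0.62 ± 0.32). HAK5, a high-affinity potassium transporter gene, differed by 1.02 ± 0.57 and by 0.55 without pkg Br-cGMP 1, where it was highest. Phosphate supply genes had 4 of 5 tested members higher and 1 lower (median 0.06), with the transporter gene PHT1-8 at 26.9, 60.9 and 56.9 FPKM in Br-cGMP seedlings, against 17.4, 38.9 and 27.6 FPKM in control seedlings beside PHT1-1 (0.75 ± 0.43, pairs 0.61, 0.63 and 1.02). The summed level of the root genes was 551 FPKM in pkg Br-cGMP 3, the library in which PHT1-1, itself in the sum, was highest.

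Metal transport and nicotianamine genes had 12 of 19 tested members higher and 7 lower (median 0.18). ZIP1, a zinc transporter gene, stood at 95.1, 339 and 102 FPKM in Br-cGMP seedlings, against 75.5, 104 and 74.96 FPKM in control seedlings, with pkg Br-cGMP 2 alone far above the rest (0.82 ± 0.52). IRT1, an iron transporter gene, differed by -0.48 ± 0.33. Metallothioneins, small metal-binding proteins, had 3 of 7 tested members higher and 4 lower; MT2B stood at 18.6, 6.82 and 11.8 FPKM in Br-cGMP seedlings, against 36.2, 15.1 and 18.6 FPKM in control seedlings, lower in every pair (-0.86 ± 0.46). Aquaporins had 5 of 16 tested members higher and 11 lower (median -0.18, with -0.47, 0.59 and -0.56 in the pairs); the median was 0.055 without pkg Br-cGMP 3 and -0.56 without pkg Br-cGMP 2. NIP1-1 stood at 81.9, 4.22 and 10.1 FPKM in Br-cGMP seedlings, against 84.5, 20.4 and 75.8 FPKM in control seedlings; pair 1 was level and the other pairs were lower (-1.62 ± 1.11). PIP2-6 had its 2 lowest levels in pkg Br-cGMP 2 and 3, at 84.9, 20.8 and 22.4 FPKM in Br-cGMP seedlings, against 117, 26.3 and 94.4 FPKM in control seedlings (-0.94 ± 0.76).

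Growth hormone genes showed no common direction. Auxin genes had 7 of 23 tested members higher and 16 lower (median -0.25). IAA10, an auxin response repressor gene, stood at 146, 109.7 and 128 FPKM in Br-cGMP seedlings, against 202, 144 and 199 FPKM in control seedlings, lower in each pair (-0.50 ± 0.23). SAUR39, an auxin-responsive gene reported in rice to restrain auxin synthesis and transport, stood at 57.1, 85.98 and 113 FPKM in Br-cGMP seedlings, against 33.9, 75.9 and 59.6 FPKM in control seedlings (0.61 ± 0.39). Cytokinin genes had 9 of 16 tested members higher and 7 lower (median 0.07). CKX9, a cytokinin oxidase gene, stood at 1.20, 1.18 and 1.58 FPKM in Br-cGMP seedlings, against 0.232, 0.501 and 0.589 FPKM in control seedlings, low but without overlap (0.69 ± 0.27), and LOGL9, of the family that activates cytokinins, differed by 0.70 ± 0.41. The brassinosteroid receptor gene BRI1 stood at 56.8, 28.2 and 30.7 FPKM in Br-cGMP seedlings, against 74.6, 39.8 and 48.2 FPKM in control seedlings, lower in each pair (-0.50 ± 0.37), in a list with 5 of 9 tested members higher and 4 lower. Of 6 ethylene genes listed, 2 were tested, 1 higher and 1 lower.

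The gibberellin list, which holds the pathway of the series title, had 12 genes, of which 4 were tested, 4 were listed at 0 and the rest were too low. SLR1, the DELLA repressor, stood at 325, 243 and 298 FPKM in Br-cGMP seedlings, against 536, 248 and 309 FPKM in control seedlings. Pkg control 1 was the highest library and the other 5 lay between 243 and 325 FPKM (-0.27 ± 0.33, and 0.049 without pkg control 1). The receptor gene GID1 stood at 141, 212 and 242 FPKM in Br-cGMP seedlings, against 204, 199 and 172 FPKM in control seedlings (0.02 ± 0.25), with overlapping groups. GAMYB was near the limit of detection, at 0.717, 0.805 and 1.98 FPKM in Br-cGMP seedlings and 0.485, 0.635 and 0.767 FPKM in control seedlings, and was not tested; the highest value was in pkg Br-cGMP 3. CYP714D1, which inactivates gibberellins, stood at 17.3, 99.1 and 2.48 FPKM in Br-cGMP seedlings, against 16.2, 26.2 and 3.12 FPKM in control seedlings (0.58 ± 1.33); its sign turned without pkg Br-cGMP 2 (-0.64) or pkg control 3 (-0.22). CYP714C2, of the same family, differed by -0.39 ± 0.43 and by 0.040 without pkg control 3. Of the amylase genes, a family that GAMYB is known to switch on in cereal grain, AMY1.1 was above 1 FPKM in pkg Br-cGMP 1 alone, the library with the storage protein transcripts.

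The cellulose synthase family had 3 of 14 tested members higher and 11 lower (median -0.48), with pair medians of -0.13, 0.26 and -1.68, so pair 3 was far below the others. The median was -0.046 without pkg Br-cGMP 3, -0.90 without pkg Br-cGMP 1 and 0.081 without replicate 3 of both groups. CSLF6, the synthase gene of mixed-linkage glucan, stood at 66.9, 20.8 and 11.4 FPKM in Br-cGMP seedlings, against 54.96, 23.7 and 86.5 FPKM in control seedlings (-0.91 ± 0.75, and 0.05 without replicate 3 of both groups). CESA4, a cellulose synthase of secondary walls, stood at 25.96, 6.78 and 5.42 FPKM in Br-cGMP seedlings, against 16.1, 11.8 and 28.1 FPKM in control seedlings (-0.75 ± 0.62, and -0.03 without replicate 3). CESA9, its partner in the same complex, differed by -0.74 ± 0.64 and by -0.07 without replicate 3. Expansins and xyloglucan enzymes, which loosen walls, had 9 of 22 tested members higher and 13 lower (median -0.20, with -0.52, 0.98 and -0.38 in the pairs). The median was 0.48 without pkg Br-cGMP 3, 0.076 without pkg control 1 and -0.44 without pkg Br-cGMP 2. EXPB3, a beta-expansin gene, stood at 125, 91.6 and 105 FPKM in Br-cGMP seedlings, against 191, 118 and 368 FPKM in control seedlings, highest in pkg control 3 (-0.92 ± 0.43). EXPA7, an alpha-expansin gene, differed by -1.15 ± 0.60 at levels under 7 FPKM. Phenylpropanoid, lignin and laccase genes had 11 of 24 tested members higher and 13 lower; COMTL2, a methyltransferase-like gene, was higher in each pair, at 5.63, 13.2 and 3.98 FPKM in Br-cGMP seedlings, against 1.99, 6.56 and 1.00 FPKM in control seedlings (1.12 ± 0.63).

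Ribosomal protein genes had 10 of 22 tested members higher and 12 lower (median -0.01). RPL18 stood at 578, 163 and 246 FPKM in Br-cGMP seedlings, against 316, 388 and 799 FPKM in control seedlings (-0.69 ± 0.57), and RPL5 differed by -0.66 ± 0.59; in both genes pair 1 was higher and pairs 2 and 3 were lower. The low RPS19B stood at 3.22, 1.86 and 1.90 FPKM in Br-cGMP seedlings, against 1.36, 0.594 and 0.719 FPKM in control seedlings (0.81 ± 0.31), without overlap. DNA replication, cell cycle and histone genes had 22 of 36 tested members higher and 14 lower (median 0.03), with RPA2B, a subunit of the single-strand DNA binding complex, at 0.52 ± 0.32. Cytoskeleton genes had 11 of 26 tested members higher and 15 lower (median -0.08). The kinesin gene KIN7K differed by -0.72 ± 0.62 and the beta-tubulin gene TUBB4 by -0.93 ± 0.82, both lowest in pkg Br-cGMP 3.

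All 12 tested photosynthesis genes, of 23 listed, were lower on average (median -0.21), but the pairs disagreed, with medians of 0.58, -0.46 and -0.95. The list median was 0.15 without pkg control 3 and -0.59 without pkg control 1. PORA, protochlorophyllide reductase of greening leaves, stood at 212, 36.95 and 105 FPKM in Br-cGMP seedlings, against 165, 255 and 273 FPKM in control seedlings, lowest in pkg Br-cGMP 2 (-1.26 ± 0.63). CHLG, chlorophyll synthase, differed by -0.43 ± 0.41 (0.51, -0.72 and -1.10 in the pairs). Pkg control 3, highest in the summed leaf genes, was the highest library for both. No member was lower in all 3 pairs. Homeobox genes had 8 of 13 tested members higher and 5 lower, with HOX5 at 618, 1254 and 766 FPKM in Br-cGMP seedlings, against 608, 633 and 557 FPKM in control seedlings (0.49 ± 0.30). Sugar transport and sucrose genes had 10 of 21 tested members higher and 11 lower (median -0.03), with the sugar transporter gene SWEET15 at -0.93 ± 0.65. The peroxide and superoxide list, which holds SODCP, had 8 of 18 tested members higher and 10 lower, and the bZIP and MYB list had 6 of 11 tested members higher and 5 lower. The 2 tested clock and flowering genes, of 12 listed, had a median of -0.03.

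**Figure D4:**
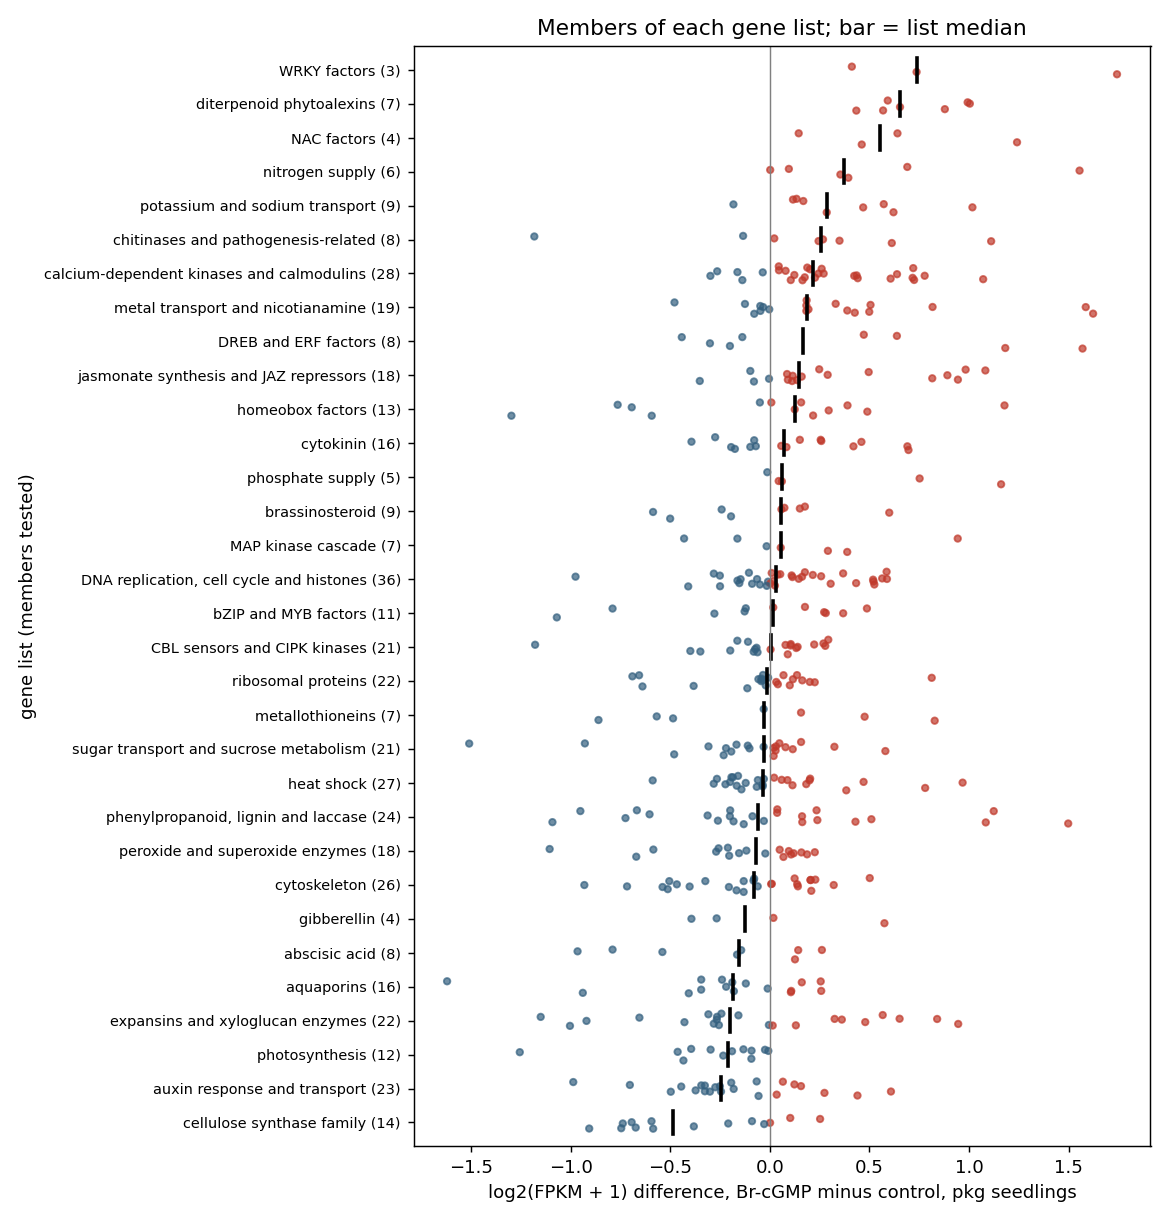
Difference in log2(FPKM + 1), Br-cGMP minus control in pkg seedlings (horizontal axis), of each tested member (points, red above 0 and blue below) of the lists with at least 3 tested members (rows, number tested in brackets), ordered by list median (black bars). WRKY, phytoalexin and NAC genes lie to the right of 0 and the cellulose synthase median is the lowest at -0.48.

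The same genes were then read in wild-type seedlings, whose libraries are separate from the 6 above. The wild-type response was fitted on all 12 libraries, with a spread shared with pkg, over features at 1 FPKM in at least 3 of the 12. The pkg counts above come from the 6 pkg libraries. With all 12 libraries in the limma fit, 591 of the 21448 features had an unadjusted p under 0.05 for the pkg response. In wild type limma called 0 of 25238 features (0%), with a smallest adjusted p of 0.0578 and 1346 features at an unadjusted p under 0.05 (5.33%). NAC67 differed by 1.29 ± 0.32 there, at 71.9 ± 22.4 FPKM with Br-cGMP and 28.9 ± 9.35 FPKM in control (SD, n = 3 each). The pkg response of NAC67 minus that of wild type was -0.05 ± 0.46. SAP1 differed by 0.80 ± 0.25 in wild type (pkg minus wild type -0.02 ± 0.36), PHT1-1 by 1.11 ± 0.31 (0.05 ± 0.44) and CYP74A2 by 0.94 ± 0.37 (-0.05 ± 0.53). For these genes the difference between genotypes was smaller than its standard error. Other genes lay further apart. All were named by their pkg values, a choice that favours wide pkg differences and so wide gaps to wild type. CAD8D differed by 0.38 ± 0.26 in wild type (0.70 ± 0.37) and SODCP by 0.05 ± 0.29 (-0.73 ± 0.41). PURA1 had the opposite sign in wild type, -0.28 ± 0.22 (0.65 ± 0.31, unadjusted limma p 0.061 and adjusted p 1), as did the low genes RPS19B, -0.44 ± 0.31 (1.25 ± 0.44), and CKX9, -0.36 ± 0.32 (1.05 ± 0.45). RPA2B (-0.63 ± 0.28 in wild type, 1.15 ± 0.39) and IRT1 (0.65 ± 0.27, -1.13 ± 0.38) also had opposite signs in the genotypes. CYP76M7 differed by -0.01 ± 0.55 in wild type (0.88 ± 0.78) and NAR2.2 by -0.39 ± 0.67 (1.95 ± 0.95). Of the 12 higher genes 11 were above 0 in wild type, and of the 5 lower genes 4 were below 0. The same share over all features was not counted, so these counts have no background. The median of the jasmonate list was 0.15 in pkg and 1.06 in wild type, and that of the phytoalexin list 0.65 and 1.53. The expansin median was -0.20 and 0.58, and the replication median 0.03 and -0.52. The WRKY median was 0.74 in pkg and 1.74 in wild type, the widest gap. These lists were among the furthest apart of the 34, while nitrogen supply genes (0.37 and 0.27) lay closer. The difference between list medians was not tested. Some root genes had wide differences in wild type, 2.24 for NIP2-1 and 1.97 for PIP2-3 (0.16 ± 2.19 and 0.26 ± 1.70 in pkg). PHT1-8 differed by 0.95 in wild type and 0.75 in pkg. The wild-type standard errors of these root genes are not given here, and limma called no feature in wild type. The part of tissue in these medians was not tested. The limma adjusted p of the difference between genotypes was 1 for every named gene with a symbol, which does not show that the responses were alike.

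**Figure D5:**
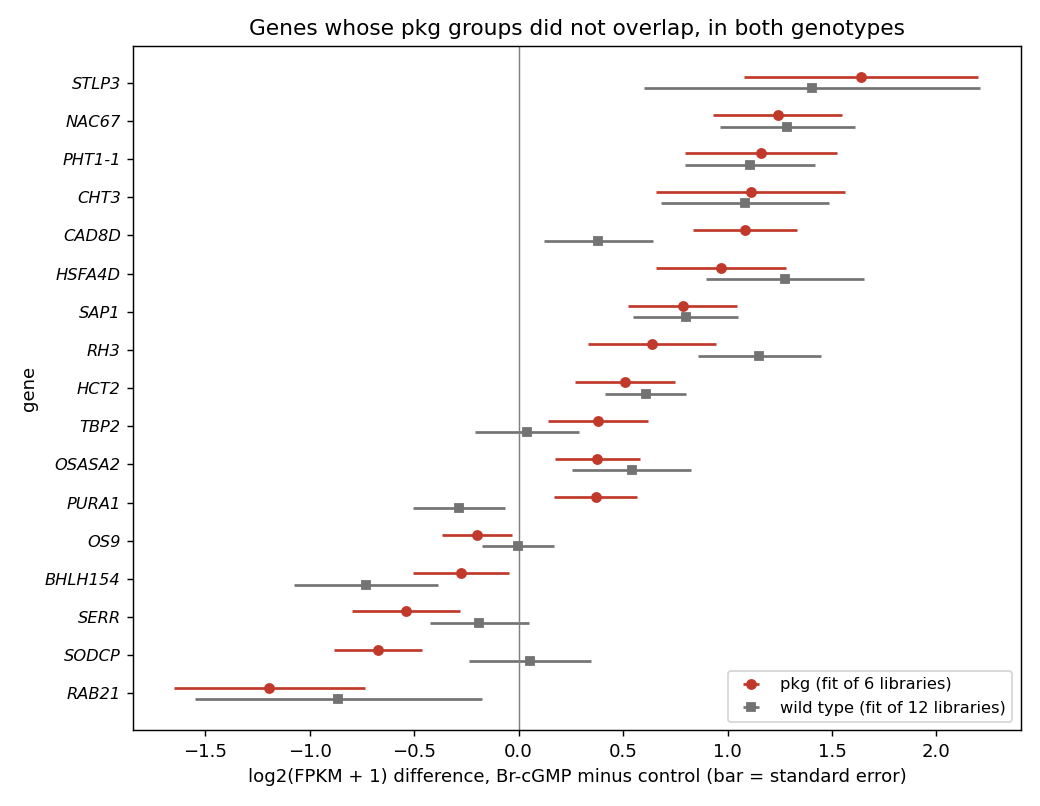
Difference in log2(FPKM + 1), Br-cGMP minus control (horizontal axis, bars are standard errors), of the 17 genes whose pkg groups did not overlap (rows), in pkg (red circles) and wild type (grey squares). NAC67, PHT1-1 and SAP1 lie at nearly the same place in both genotypes, and SODCP lies at -0.67 in pkg and 0.05 in wild type.

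Over all 25238 features, the difference between the pkg and the wild-type response gave 1 call (0.00396%) and 523 features at an unadjusted p under 0.05 (2.07%). The feature called, EPlOSAG00000003869 (chromosome 3, 12950822 to 12950874), rests on very few reads: 1, 2 and 2 in pkg Br-cGMP, 0 in each pkg control, 0 in each wild-type Br-cGMP and 2, 2 and 3 in wild-type control libraries. Every count was at or under 3 reads, so no fold is given. Its adjusted p in limma was 0.00606, and 0.346 with the replicate number as a block within genotype.

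The 8 features with the smallest p in pkg seedlings had no symbol. Of the EPlOSAG features, with a median length of 70 bases and a median of 15 reads over the 6 libraries, 7.665% had an unadjusted p under 0.05 (128 of 1670). Among reference genes, with a median length of 1378 bases and 821 reads, the share was 1.378% (171 of 12413), 118 higher and 53 lower. EPlOSAG00000047275 (chromosome 2, 30535094 to 30535156) had 2, 5 and 6 reads in Br-cGMP seedlings and 0 in each control. EPlOSAG00000052396 (chromosome 1, 35886323 to 35886383) had 4, 6 and 4 reads in Br-cGMP seedlings and 1, 0 and 0 in control seedlings. In the other direction, EPlOSAG00000002301 (chromosome 6, 15813546 to 15813603) had 5, 4 and 3 reads in Br-cGMP seedlings and 20, 18 and 8 in control seedlings. A feature added by the authors to the reference genes (chromosome 7, 23572425 to 23572930) had 2, 1 and 5 reads in Br-cGMP seedlings and 25, 23 and 19 in control seedlings, at 0.456, 0.226 and 1.24 FPKM in Br-cGMP seedlings, against 5.26, 4.64 and 5.80 FPKM in control seedlings (-1.97 ± 0.32). These counts do not overlap between the groups, and none of the 4 features passed the adjusted threshold.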

How the data were processed

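The deposited tables hold 1 value per feature with no unit named. The authors' values behave as FPKM: multiplied by feature length, 100% of values above 0 came out as whole reads once a constant for the library was divided out (tolerance 0.01 reads). CASAVA 1.8 and HISAT2 are named in the submitters' processing notes; the sources used here give no build, annotation or counter. Groups and replicate numbers come from the sample titles. Features that reached 1 FPKM in at least 3 of the 6 pkg libraries were tested on log2(FPKM + 1) using limma 3.58.1 (R 4.3.3), with trended, robust moderation and Benjamini-Hochberg adjustment at 0.05. Adding 1 understates the folds of low features. The wild-type response and the difference between genotypes were fitted on all 12 libraries. Same-numbered pkg libraries deviated together, above 0.1 in all 3 pairs. Pkg Br-cGMP 2 with control 1 (0.154) and pkg Br-cGMP 3 with control 2 (0.146) were above 0.1 too. The labels give only the number, so the pairing by number comes from the data. Tables and figures used Python 3.11.15, pandas 2.3.3 and matplotlib 3.10.9. The fit was also run on simulated reads drawn with no variation shared by replicate number, and no result here rests on that run.

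Named genes are the locus OS02G0281000, SLR1, GID1 and GAMYB; genes with a symbol that average 5 FPKM or more in the higher group and do not overlap, at most 12 per direction by p; up to 4 members of each list by p; and 2 identifiers without a symbol per direction. The rule gives 146 features, of which 83 are given in the text. No rule for choosing those 83 was fixed beforehand. The members and lists were chosen with earlier results of these data known. Names come from the files alone, which give a symbol for 2079 of 37830 reference genes. Alternatives covered the block, filter, pseudocount, scaling, moderation, features, test and libraries.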

Additional observations from a re-analysis of the deposited data

Results flagged for a closer look

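EPlOSAG00000003869, a feature of 53 bases on chromosome 3, was singled out because its response differed between the genotypes in the limma test of that difference. The pkg response minus the wild-type response was 4.82 on the log2(FPKM + 1) scale, a fitted value that depends on the pseudocount and is no bound on a fold, since every library held at most 3 of its reads. With the replicate number as a block within genotype the value was the same and its adjusted p was 0.346. Its adjusted p ranged from 0.00128 to 0.346 over the alternatives tried.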

How the results depend on the processing

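The pkg response gave 0 calls under every alternative tried for it, and the 83 features given with values in the text gave 0 calls in 1476 refits, with a smallest adjusted p of 0.655. Features at an unadjusted p under 0.05 numbered 853 with the replicate block, 883 with the block in the fit of all 12 libraries, 651 with no filter, 161 with the stricter filter of 5 FPKM, 171 with reference genes alone and 781 by limma-voom with the block, an alternative chosen after seeing the data. Without single libraries they numbered 375 to 1153, the highest without pkg Br-cGMP 1. Features without overlap numbered 1029 higher and 943 lower with no filter, 299 and 187 with the stricter filter, and 338 and 213 with reference genes alone. The difference between genotypes gave 0 calls with the block, 2 with a pseudocount of 0.1, 2 with no filter and 1 to 3 without single libraries; it was 3 without pkg control 1 and 2 without pkg Br-cGMP 1. Its features at an unadjusted p under 0.05 numbered 828 with the block and 929 with no filter, and 465 to 1114 without single libraries, the highest without pkg Br-cGMP 2. The cause of these changes was not tested, beyond the fewer or more features tested.

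Of 578 list medians refitted, 51 moved by more than the spread of the 3 pairs, and 24 of the 34 lists changed sign without 1 library. With the stricter filter the medians were 1.38 for DREB, 0.29 for MAP kinase, 0.40 for phosphate, 0.13 for potassium and sodium, -0.0707 for cytokinin and 0.0177 for gibberellin genes, over fewer members. With a pseudocount of 0.1 they were 0.15 for cytokinin and -0.37 for abscisic acid genes, and by limma-voom 0.17 and -0.40. Without replicate 3 of both groups they were 0.20 for MAP kinase, -0.0695 for cytokinin and -0.39 for abscisic acid genes. Without single libraries, medians ranged from 0.20 to 1.40 for phytoalexin, 0.32 to 0.95 for NAC, -0.12 to 0.62 for DREB, -0.10 to 0.14 for CBL and CIPK, -0.0085 to 0.162 for MAP kinase, -0.0317 to 0.51 for phosphate, 0.14 to 0.59 for nitrogen and 0.12 to 0.50 for potassium and sodium genes. They ranged from -0.50 to 0.10 for metallothionein, -0.39 to 0.0321 for auxin, -0.00765 to 0.22 for cytokinin, -0.25 to 0.0575 for gibberellin, -0.328 to -0.0606 for abscisic acid and -0.35 to 0.0915 for ethylene genes. They ranged from -0.28 to 0.18 for brassinosteroid, -0.20 to 0.39 for replication, -0.15 to 0.13 for heat shock and -0.24 to 0.0941 for peroxide genes.

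Of these 83 features, 6 turned in direction, each when libraries were left out. The naming rule gives 146 features, and 21 of them turned so. Without replicate 3 of both groups it was 0.10 for CYP714C2, -0.22 for GID1 and 0.0495 for CSLF6. Without single libraries the ranges were -0.67 to 0.0405 for CYP714C2, -0.50 to 0.0493 for SLR1, -0.64 to 1.78 for CYP714D1, -0.143 to 0.24 for GID1 and -0.50 to 0.0451 for OS02G0281000. With 3 libraries a group, the count of 0 calls does not show that Br-cGMP changed nothing, and values of a few reads, as for most EPlOSAG features, are limited by depth.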
